A study of Saccharomyces cerevisiae with 24 samples.

Results

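The haploid yeast strain Sc[At] was compared with the haploid wild type ScNI, with 3 RNA-seq libraries of each strain. These 6 libraries were taken by their strain labels from a series of 24 samples, in which 8 strains of Saccharomyces cerevisiae carry the wild-type or a modified actin. The comparison runs over the 5838 yeast genes of the haploid table, and the 5 entries for introduced actin genes were set aside from the tests. The labels name Sc[At] as a haploid strain with a modified actin and ScNI as the haploid wild type. The sources used here give neither the meaning of At nor the way in which its actin gene was placed. All 6 cultures were in log phase in YPD, a rich medium with dextrose, at 25 °C. Poly(A) RNA was read as single reads of 50 bases. The libraries held 12119072, 10228523 and 10281052 reads assigned to genes for Sc[At], against 15342457, 15403081 and 12387613 reads for ScNI.

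Actin is the protein of the patches and cables by which budding yeast takes up membrane and sends secretory vesicles to the bud. The vesicles carry the enzymes and mannoproteins of the cell wall, which is made of glucans, chitin and mannoproteins. Stress on the wall is sensed at the plasma membrane by proteins of the Wsc and Mid2 families. They act through the GTPase Rho1 and protein kinase C on a MAP kinase cascade that ends in Slt2. Slt2 activates the transcription factor Rlm1, which drives wall protein genes, and the factor SBF, which drives G1 cyclin genes. The series asks by its title how the levels of actin binding proteins respond when the actin sequence is changed.

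The replicate numbers mark a biological difference that both strains share. Replicate 2 of each strain showed the MATalpha pattern and replicates 1 and 3 the MATa pattern. The summed level of 6 MATa-specific genes was 17339, 1347 and 18842 normalised counts in Sc[At] replicates 1, 2 and 3, against 17103, 647 and 17596 in ScNI. The summed level of 4 MATalpha-specific genes was 1113, 42261 and 1101 in Sc[At], against 695, 50227 and 694 in ScNI. The libraries were therefore compared as pairs with the same number. Replicate 3 of Sc[At] stood apart in its growth and stress genes. The median log2 difference of 42 ribosome biogenesis genes was −0.02, −0.33 and 0.48 in pairs 1, 2 and 3. That of 30 genes of the stress factors Msn2 and Msn4 was 0.50, 0.65 and −0.45. The results were therefore also computed without each pair.

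ACT1 encodes the actin of wild-type yeast and lies on the minus strand of chromosome VI (53260–54696 in R64). It had 31.5, 67.5 and 68.8 normalised counts in the 3 Sc[At] libraries, against 18549, 18547 and 18397 in ScNI. These are read counts divided by a library size factor, as deposited. The Sc[At] mean was 0.302% of the ScNI mean, and the log2 difference was −8.43 (SE 0.23, adjusted p = 0.00089). The entry for the introduced Sc[At] actin gene had 18656, 19567 and 18569 normalised counts in Sc[At], against 0.82, 0 and 0 in ScNI. Its mean in Sc[At] was 102% of the ACT1 mean in ScNI. In each of the 6 libraries the abundant actin entry was that of the strain on its label. The neighbour YPT1, a Rab GTPase gene, had a log2 difference of −0.07 (adjusted p = 0.49). On the other side YFL040W, a transporter-like gene, had 0.36 (adjusted p = 0.053), so neither neighbour passed the test.

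Of 5804 genes tested, 948 (16.3%) differed between Sc[At] and ScNI at an adjusted p under 0.05. Of the genes tested, 614 (10.6%) were higher in Sc[At] and 334 (5.75%) were lower. Changes of at least 2-fold went almost entirely upwards, with 164 genes higher and 4 lower. edgeR called 17.3% (11.0% higher, 6.31% lower), and DESeq2 called 15.4% (10.4% higher, 5.0% lower). The test was limma on log2(normalised counts + 1) with the replicate pair as a block and Benjamini-Hochberg adjustment over all genes tested. "Rose" and "fell" are used below only for genes that passed it. Without pairs 1, 2 and 3 in turn, 45 of 5807, 508 of 5806 and 2121 of 5805 genes passed. Of these, 42, 429 and 1152 were higher in Sc[At] and 3, 79 and 969 lower. The calls in a list without a pair, given below, are to be read against these totals. The labels do not say whether replicates are separate cultures or clones. A p-value therefore measures the spread between these samples.

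**Figure D1:**
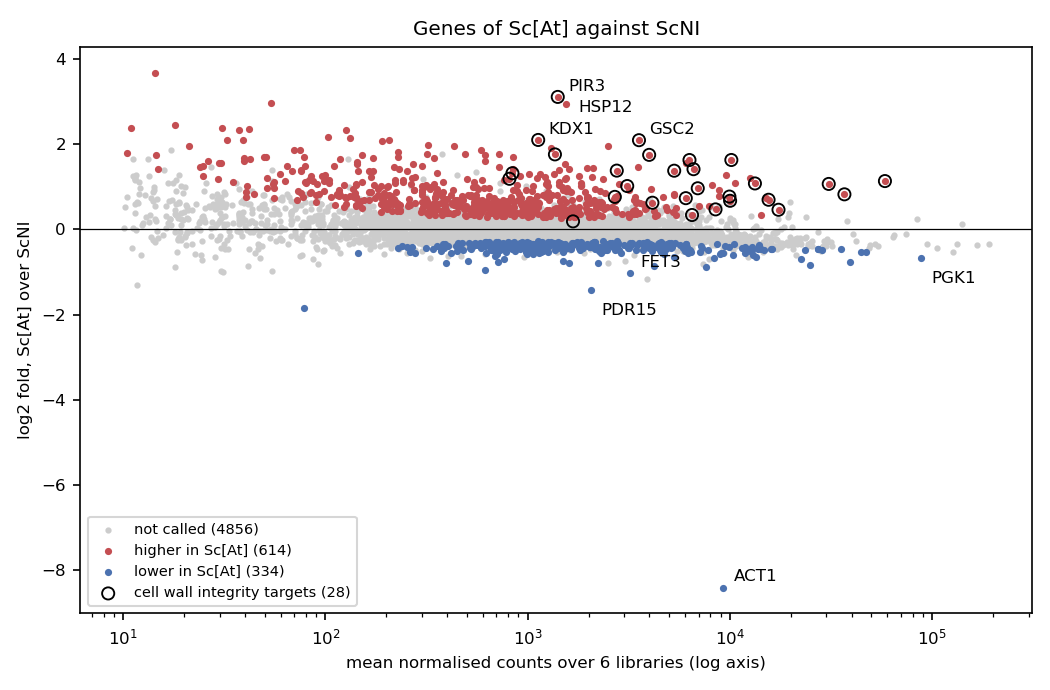
Each point is a yeast gene, placed by its mean normalised counts over the 6 libraries (horizontal, log axis) and its log2 fold of Sc[At] over ScNI (vertical). Red marks the 614 genes that were higher in Sc[At], blue the 334 that were lower and grey the rest. Circles mark the 28 target genes of the cell wall integrity pathway, which all lie above 0, and ACT1 lies alone at −8.43.

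The genes of wall stress gave the clearest group in Sc[At]. Of 28 target genes of the cell wall integrity pathway, 27 rose and none fell (96.4% higher, against 10.6% of all genes tested). Their median log2 difference was 1.08, against −0.0025 for all genes tested, and it was 1.06, 1.15 and 0.94 in pairs 1, 2 and 3. When pairs 1, 2 and 3 were left out in turn, 10, 25 and 28 of the 28 passed, and the median stayed between 1.03 and 1.09. The lists of genes in this account were drawn up from textbook knowledge with earlier results of these data known. Wherever "none fell" or "none rose" is written of a list below, relative to ScNI, between 0 and 3 of its genes lay in that direction at an unadjusted p under 0.05. In those directions edgeR called none except 1 polarity gene, and DESeq2 none except 1 gene of wall integrity signalling.

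PIR3 encodes a wall mannoprotein that is linked to glucan through internal repeats. It had 2965, 3329 and 1338 normalised counts in Sc[At], against 281, 280.4 and 253 in ScNI. The lowest Sc[At] library, replicate 3, lay well above all ScNI libraries, and the log2 difference was 3.12 (SE 0.23, adjusted p = 0.0044). No other of the 28 target genes changed as much. KDX1, which encodes a kinase-like relative of Slt2, had 2122, 1837 and 1536 in Sc[At], against 459, 419 and 387 in ScNI. GSC2 encodes the stress-induced catalytic subunit of glucan synthase, and had 6587, 6385 and 4351 in Sc[At], against 1327, 1242 and 1404 in ScNI. Replicate 3 was again the lowest of Sc[At] for both genes, and no ScNI library came near it. The log2 differences were 2.11 (SE 0.08, adjusted p = 0.0018) for KDX1 and 2.10 (SE 0.16, adjusted p = 0.0045) for GSC2. FKS1, which encodes the catalytic subunit used in growth on glucose, had 20116, 17908 and 19628 in Sc[At], against 11736, 11447 and 12287 in ScNI. Its log2 difference was 0.70 (SE 0.08, adjusted p = 0.011). GSC2 and FKS1 are paralogues, and the sources used here do not say how reads that fit both were counted.

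The 300 bases before the annotated start codon of PIR3 (R64, XI:144101–144400, plus strand) are shown because PIR3 rose most in this group and because the window holds a match to the Rlm1 motif. The capitals mark that match, which begins 280 bases before the start codon.
PIR3: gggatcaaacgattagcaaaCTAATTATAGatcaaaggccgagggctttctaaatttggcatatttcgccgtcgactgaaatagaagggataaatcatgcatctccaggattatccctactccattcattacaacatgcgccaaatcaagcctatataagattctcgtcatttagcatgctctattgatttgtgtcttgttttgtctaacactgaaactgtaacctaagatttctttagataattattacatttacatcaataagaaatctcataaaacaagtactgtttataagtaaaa
The Rlm1 motif is a palindrome of TA-rich letters, searched here in its standard consensus form, which reads the same on both strands. It was found in 66 of 5723 such windows of tested genes (1.15%). In the 28 wall integrity targets it was found in 5 windows (17.9%), among all genes that rose in 20 of 612 (3.27%), and among those that fell in 0 of 331. The 28 were listed as targets of the pathway that acts through Rlm1, so their share gives no separate support. The windows of KDX1 and GSC2 hold no match, which says only that these letters are not in those windows. The other 4 target genes with a match, and the phosphatase gene PTP2, are shown with 10 bases on each side of it for comparison with PIR3.
KTR2 (XI:557400–557429, plus strand): ttttgtctaaCTAATTATAGcattaataaa
HSP150 (X:120216–120245, plus strand): acattttgagCTAAATTTAGattttggtca
CCW14 (XII:903495–903524, plus strand): cggaaaattaCTATTTATAGaagcattgga
BGL2 (VII:1058924–1058953, minus strand): atatgcagttCTATTTTTAGtaaaagaaac
PTP2 (XV:733873–733902, plus strand): atccccagtgCTATTAATAGtttacaataa
The capitals of KTR2 and PIR3 are the same letters, and the others differ from them in the TA-rich middle. The log2 differences of these genes were 1.77 for KTR2, 0.83 for HSP150, 0.77 for CCW14, 0.46 for BGL2 and 0.75 for PTP2, and all 5 rose. Of the 28 signalling genes of the pathway, 2 had a match, PTP2 and the kinase gene BCK1. BCK1, whose site is not shown, did not pass (log2 0.17, adjusted p = 0.15). A match is a description of the sequence, and binding was not measured.

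KTR2, a mannosyltransferase gene, had 2349, 1942 and 2036 normalised counts in Sc[At], against 613, 623 and 616 in ScNI (log2 1.77, SE 0.09, adjusted p = 0.0022). CRH1 encodes a transglycosylase that joins chitin to glucan. It had 16671, 14279 and 15171 in Sc[At], against 5111, 4659 and 5058 in ScNI (log2 1.64, SE 0.07, adjusted p = 0.0020). The libraries of the 2 strains did not overlap for either gene. Among wall mannoproteins, SED1 had 86591, 87400.1 and 67476 in Sc[At], against 37288, 36231 and 35348 in ScNI (log2 1.14). CWP1 had 10279, 9131 and 9349 in Sc[At], against 4369, 3036 and 3457 in ScNI (log2 1.42). Both rose, with no overlap between strains. The yapsin protease gene YPS3 rose by log2 1.39, and PST1, which encodes a GPI-anchored wall protein, by 1.38. SVS1 and NCW2, which also encode wall proteins, rose by 1.76 and 1.63. CHS3, the chitin synthase gene for most wall chitin, rose by 1.02, and GFA1, the first enzyme of chitin precursor synthesis, by 0.97. The mannoprotein genes CIS3, CWP2 and PIR1 rose by 1.08, 1.07 and 0.68, and the yapsin genes YPS6 and YPS1 by 1.19 and 0.34. DFG5, for a putative GPI-anchored mannosidase, and PRM5, a pheromone-regulated membrane protein gene, rose by 0.77 and 0.63. SPI1, a wall protein gene that also belongs to the Msn2 and Msn4 list, did not pass. It had 1896, 2897 and 830.2 in Sc[At], against 1345, 1849 and 1231 in ScNI (log2 0.19, adjusted p = 0.60), and its Sc[At] value was below that of ScNI in pair 3.

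**Figure D2:**
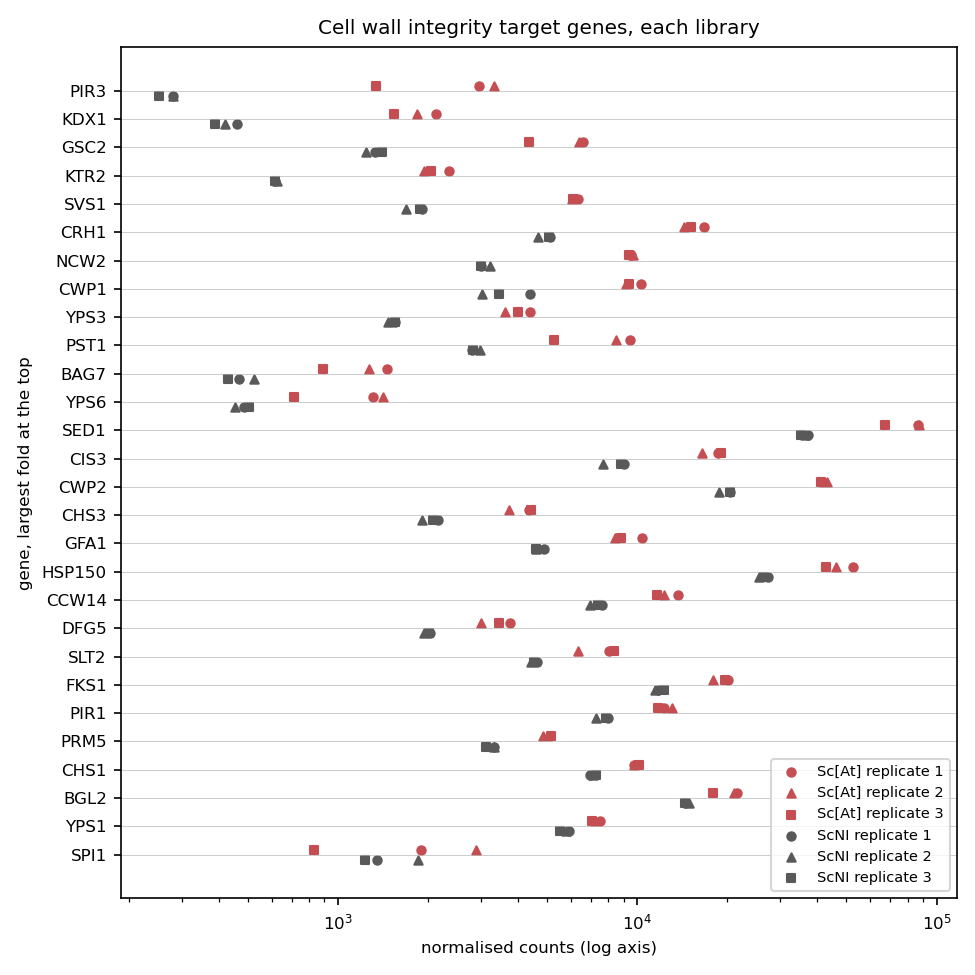
Normalised counts (log axis) of the 28 target genes of the cell wall integrity pathway in each library, with Sc[At] in red above ScNI in grey and the genes ordered by fold. In the 27 genes that passed the test the red symbols lie to the right of the grey ones, and in SPI1 the 2 strains overlap. The share of all genes tested that separate in this way was not counted.

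Genes for the enzymes that build and remodel the wall polymers also rose in large part. Of 29 such genes, 19 rose (65.5%, against 10.6% of all genes tested) and 1 fell. Their median log2 difference was 0.47, with pair medians of 0.53, 0.50 and 0.49. With pair 1, 2 or 3 left out, 2, 17 and 20 rose. The list shares GSC2, FKS1, CRH1, CHS1, CHS3, GFA1 and BGL2 with the target list. Of its other members, the glucanase gene EXG1 had 13719.9, 11827 and 15094 normalised counts in Sc[At], against 5491, 5518 and 5569 in ScNI (log2 1.29, SE 0.09, adjusted p = 0.0042). SCW10, which encodes a glucanase-like wall protein, had 17723, 16109.9 and 18971 in Sc[At], against 8044, 7300.0 and 7585 in ScNI (log2 1.20). GAS3, of the glucan-elongating Gas family, was the member that fell, with 1901, 1983 and 2291 in Sc[At], against 2826, 2761 and 3005 in ScNI (log2 −0.48, adjusted p = 0.019).

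The signalling components themselves changed less and in part. Of 28 genes of the pathway, 9 rose (32.1%, against 10.6% of all genes tested) and none fell. Their median log2 difference was 0.18, with pair medians of 0.20, 0.19 and 0.21. Without pairs 1, 2 and 3 in turn, 1, 9 and 12 rose. BAG7 is counted both in this list and in the target list. SLT2, the MAP kinase, had 8042, 6333 and 8366 normalised counts in Sc[At], against 4619, 4428 and 4498 in ScNI (log2 0.74, SE 0.10, adjusted p = 0.015). RLM1, the transcription factor, had 2867, 2539 and 2827 in Sc[At], against 1824, 1807 and 1887 in ScNI (log2 0.58, SE 0.07, adjusted p = 0.012). For both genes the lowest Sc[At] library lay above the highest ScNI library. Genes for negative regulators of the pathway were among those that rose: BAG7, for a GTPase-activating protein of Rho1, by log2 1.32, and the phosphatase genes PTP2, MSG5 and PTP3 by 0.75, 0.67 and 0.48. Of the sensor genes, MTL1 rose by 0.88, WSC4 by 0.88 and WSC2 by 0.52. The main sensor genes did not pass, with −0.15 for SLG1 (WSC1) and 0.25 for MID2 (adjusted p = 0.18 and 0.058). The genes of the core cascade did not pass either. Their log2 differences were −0.14 for RHO1, −0.14 for PKC1, 0.17 for BCK1, −0.07 for MKK1 and −0.15 for MKK2, and 0.30 for ROM2, which encodes an exchange factor of Rho1. The phosphatase gene SDP1 was at −0.61 (adjusted p = 0.075). The sensor gene WSC3 was at 0.41 (adjusted p = 0.064). The GTPase gene RHO2, the exchange factor genes ROM1 and TUS1, the GTPase-activating protein genes SAC7, LRG1 and BEM2, and SPA2, for a polarity scaffold, lay between −0.10 and 0.21. SWI4 and SWI6, for the subunits of SBF, were at 0.15 and −0.19. WSC3 and these other 9 genes did not pass.

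**Figure D3:**
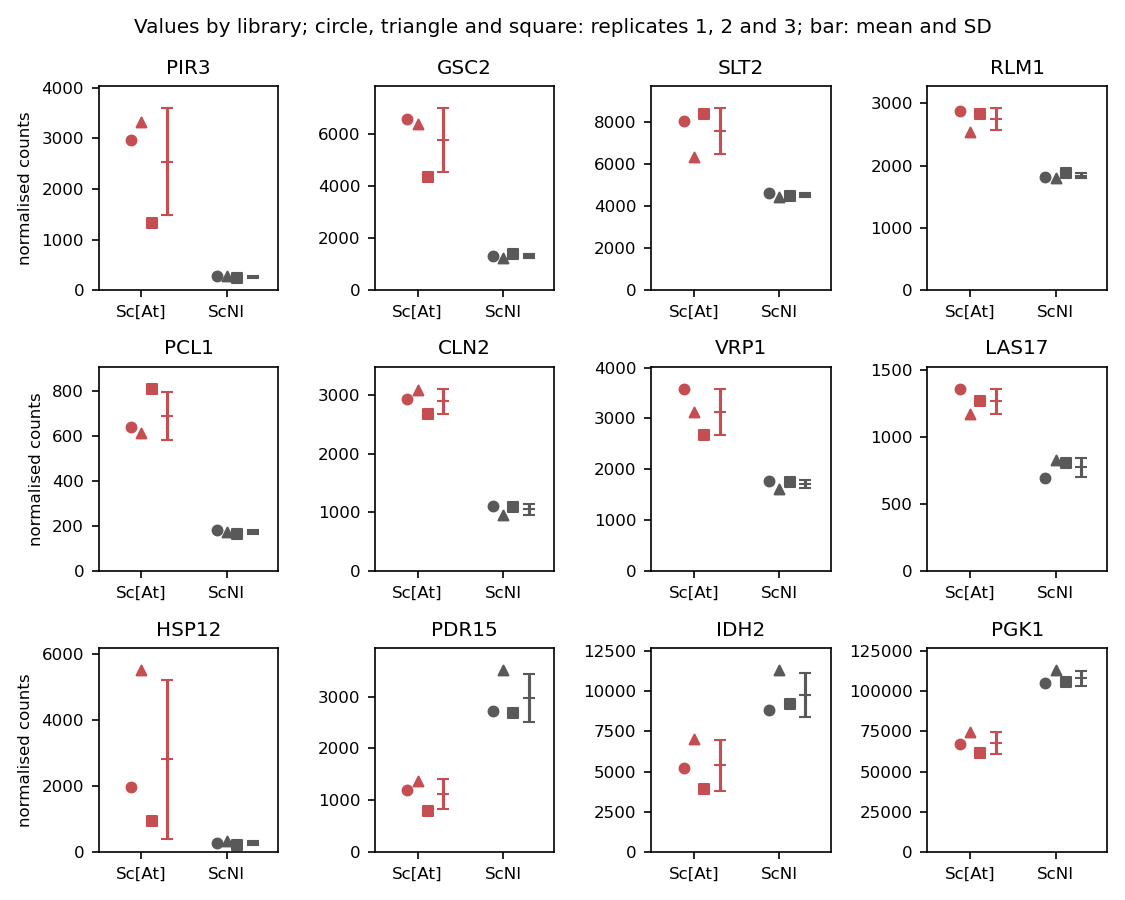
Normalised counts of 12 genes in each library, Sc[At] in red at the left and ScNI in grey at the right of each panel, with the mean and SD beside the points (n = 3 each). All 12 genes passed the test and were picked for display, so the separation of the strains in all 12 panels adds no further support. The spread within Sc[At] is widest for HSP12, where replicate 2 is the highest.

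The genes of proteins that act on actin filaments were called at about the rate of all genes. Of 18 genes for filament turnover and bundling, 1 rose and 2 fell (16.7% changed, against 16.3% of all genes tested), and the median log2 difference was 0.05. The pair medians were 0.13, 0.11 and −0.08. COF1, the cofilin gene, had 6068, 6407 and 5580.0 normalised counts in Sc[At], against 5613, 6019 and 5544 in ScNI, and SAC6, the fimbrin gene, had 7739, 8311 and 7096 in Sc[At], against 7372, 7711 and 7529 in ScNI. The libraries of the strains overlapped for both genes, and the log2 differences were 0.07 and 0.03 (adjusted p = 0.50 and 0.80). PFY1, for profilin, was at 0.16, and the tropomyosin genes TPM1 and TPM2 were at −0.11 and −0.25. AIP1, CRN1 (coronin), TWF1 (twinfilin), CAP1 and CAP2 (capping protein) lay between −0.01 and 0.21. ABP1, for an actin patch protein, was at 0.37 (adjusted p = 0.057). SCP1, the transgelin gene, was at 0.20, AIM3 at 0.33, BSP1 at −0.21 and AIP5 at −0.16. None of these passed. SRV2, for the cyclase-associated protein that recycles actin monomers, had 4824, 4919.7 and 3822 in Sc[At], against 3172, 3145 and 3143 in ScNI, and rose by 0.51 (SE 0.10, adjusted p = 0.030). ABP140, for a filament-binding protein with a methyltransferase domain, had 3571, 3464 and 4030.0 in Sc[At], against 4825, 4807 and 5020.2 in ScNI. It fell by 0.41 on the log2 scale (adjusted p = 0.027). AIM7, for a GMF-family protein that removes Arp2/3 branches, had 959.8, 1148 and 759 in Sc[At], against 1202, 1419 and 1180.5 in ScNI, and fell by 0.42 on the log2 scale (adjusted p = 0.041). Without pair 3, 7 genes of this list rose and 3 fell, and without pairs 1 and 2 in turn 0 and 1 passed.

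The Arp2/3 complex nucleates the branched filaments of actin patches. The genes that differed most in its list were those of the activators verprolin and WASP. Of 16 genes, 4 rose and 1 fell (31.25% called, against 16.3% of all genes tested). The median log2 difference was 0.25, with pair medians of 0.30, 0.31 and 0.13. VRP1 encodes verprolin and had 3579, 3131 and 2673 normalised counts in Sc[At], against 1768, 1616 and 1757 in ScNI (log2 0.86, SE 0.10, adjusted p = 0.012). Its partner LAS17, the yeast WASP gene, had 1359.9, 1172 and 1269 in Sc[At], against 694, 829 and 806 in ScNI (log2 0.71, SE 0.11, adjusted p = 0.020). The strains did not overlap for either gene. The subunit genes ARC18 and ARC15 rose by 0.36 and 0.35. The other subunit genes did not pass, with 0.16 for ARP2, 0.23 for ARP3, 0.14 for ARC19, 0.21 for ARC35 and 0.30 for ARC40. The type I myosin genes MYO3 and MYO5 were at 0.36 and 0.19 and did not pass. PAN1, for an endocytic coat protein that activates the complex, was at 0.28 (adjusted p = 0.053), BZZ1 at −0.07 and AIM21 at 0.16, and ABP1 also belongs to this list. TDA2, for a partner of AIM21's product, fell by 0.38 on the log2 scale (adjusted p = 0.046). Without pair 3, 11 of the 16 rose and 1 fell, and without pairs 1 and 2 in turn 0 and 2 passed.

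The coat and scission genes of endocytosis gave 2 of 26 higher and 2 lower. SLA2, for an adaptor that links the coat to actin, rose by log2 0.37 and SCD5 by 0.43. RVS161, an amphiphysin-like gene, fell by 0.32 and LDB17 by 0.41 on the log2 scale. Of 19 genes for formins, cables and cable transport, 2 rose and 1 fell. BNR1, the formin gene of the bud neck, had 364, 404 and 476 normalised counts in Sc[At], against 297, 267 and 318 in ScNI (log2 0.49, adjusted p = 0.034). MYO4, the myosin gene of mRNA transport, rose by 0.28, and SHE3, the gene of its adaptor, fell by 0.50 on the log2 scale. Of 17 genes for the CCT chaperonin, which folds actin and tubulin, and for prefoldin, BUD27 passed, at 0.51. In that list 6 genes were lower at an unadjusted p under 0.05, DESeq2 called 1 lower, and limma called 6 lower without pair 3. Of 13 genes for tubulins and their cofactors, BIM1 and ALF1 fell by 0.36 and 0.35. Of 17 genes for nuclear actin-related proteins and their remodelling complexes, ARP9 and ARP4 fell by 0.53 and 0.36. The shares of these 5 lists that passed ran from 5.88% to 15.8%, no more than the 16.3% of all genes tested. They gave no call without pair 1. Without pair 3, limma called 7 coat genes higher and 2 lower, 3 cable genes higher and 2 lower, 3 tubulin genes lower, and 2 nuclear genes higher and 5 lower.

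Polarity and cytokinesis genes rose in part. Of 26 genes of the Cdc42 polarity system, 7 rose and none fell (26.9% higher, against 10.6% of all genes tested). GIC2, for a Cdc42 effector, had 2281, 2259 and 2946 normalised counts in Sc[At], against 1275, 1026 and 1197 in ScNI (log2 1.09, SE 0.10, adjusted p = 0.0079). AXL2, for an axial bud-site landmark, had 2126, 1934 and 1861 in Sc[At], against 1065, 983 and 1048 in ScNI (log2 0.93). RAX2, another landmark gene, rose by 0.72, and SKM1, a PAK kinase gene, by 0.54. Of 11 genes of the contractile ring and primary septum, 6 rose (54.5%). CHS2, the chitin synthase gene of the septum, had 1644, 1366 and 1533 in Sc[At], against 854, 862 and 867 in ScNI (log2 0.81, SE 0.08, adjusted p = 0.0090). BUD4 rose by 0.64, BUD3 by 0.55 and CYK3 by 0.46. The remaining pair, MYO1 and IQG1, named after their values were seen, encode the ring's myosin and IQGAP and rose by 0.45 and 0.42. Of 13 septin and bud-neck kinase genes, HSL1, NIS1 and GIN4 rose, by 0.92, 0.76 and 0.62 (23.1% of the list). When pairs 1, 2 and 3 were left out in turn, 1, 4 and 10 polarity genes and 0, 6 and 6 ring genes rose. The polarity list then also had 0, 0 and 2 genes lower. The same fits gave 0, 3 and 4 septin and bud-neck genes higher and 0, 0 and 1 lower.

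Cell cycle genes of several phases rose together. Of 20 G1 cyclin genes and SBF targets, 11 rose (55%, against 10.6% of all genes tested) and none fell. The pair medians were 0.32, 0.51 and 0.68. The list shares SVS1 with the wall target list and GIC2 with the polarity list. CLN2, a G1 cyclin gene, had 2924, 3078 and 2665 normalised counts in Sc[At], against 1112, 951 and 1095 in ScNI (log2 1.46, SE 0.10, adjusted p = 0.0042). PCL1, for a cyclin of the kinase Pho85, had 639, 615 and 809 in Sc[At], against 184, 177 and 166 in ScNI (log2 1.95, SE 0.13, adjusted p = 0.0041). The Sc[At] libraries of both genes lay far above those of ScNI. YOX1, for a repressor of early cell cycle genes, rose by 1.48. The SBF motif CGCGAAA, searched on both strands, was in the windows of 6 of these 20 genes (30.0%), against 234 of 5723 (4.09%). Members were listed as SBF targets, so this share gives no separate support. The PCL1 window holds it at its edge, and the site is shown because PCL1 rose most in the list, with the reverse complement of the motif in capitals.
PCL1 (XIV:87597–87619, plus strand): gaaattTTTCGCGgaggcatgcg
The other 5 genes with the motif included SWE1, which rose by 0.35, and STB1, TOS4, OCH1 and RSR1, which did not pass (log2 0.28, 0.04, 0.20 and −0.03). These 5 are named for the motif.

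Of 24 S-phase genes of the factor MBF, 8 rose (33.3%, against 10.6% of all genes tested), and 0, 5 and 8 rose in the fits without pairs 1, 2 and 3. The S-phase cyclin gene CLB6 rose by log2 1.10, RNR1, for the large subunit of ribonucleotide reductase, by 0.63, and POL30, the PCNA gene, by 0.53. Of 18 genes of the G2/M cluster, 11 rose (61.1%) and none fell, with pair medians of 0.53, 0.31 and 0.53. DBF2, a kinase gene of mitotic exit, had 1717, 1597 and 1452 normalised counts in Sc[At], against 970.3, 919 and 873 in ScNI (log2 0.78, SE 0.07, adjusted p = 0.0056). CDC20, the activator gene of the anaphase-promoting complex, had 1235, 1144 and 1199 in Sc[At], against 801, 793 and 724 in ScNI (log2 0.63). Both genes separated the strains in every library. The list shares genes such as CHS2, BUD4, MYO1 and IQG1 with the ring list. Histone genes went the other way. Of 10, 7 fell (70.0%, against 5.75% of all genes tested) and none rose. HTB2, a histone H2B gene, had 3564, 3596 and 4177 in Sc[At], against 5622, 5647 and 5633 in ScNI (log2 −0.58, adjusted p = 0.016). HHF2, a histone H4 gene, fell by 0.56 on the log2 scale. With pair 1, 2 or 3 left out, 5, 10 and 12 SBF genes and 0, 12 and 12 G2/M genes rose, and 0, 2 and 9 histone genes fell. In RNA from whole cultures, fewer cells in a phase and less RNA per cell cannot be told apart.

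Genes that respond to DNA damage were higher as well. Of 13 genes, 6 rose (46.2%, against 10.6% of all genes tested). RNR3, the damage-induced large subunit gene of ribonucleotide reductase, had 600.1, 480.4 and 398 normalised counts in Sc[At], against 124, 152 and 153 in ScNI (log2 1.76, SE 0.18, adjusted p = 0.0090). HUG1, for an inhibitor of the enzyme, had 267, 248 and 200.4 in Sc[At], against 82.8, 102 and 86.2 in ScNI (log2 1.39). SML1, the other inhibitor gene, rose by 0.52. Without pairs 1, 2 and 3 in turn, 1, 4 and 7 of the 13 rose.

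**Figure D4:**
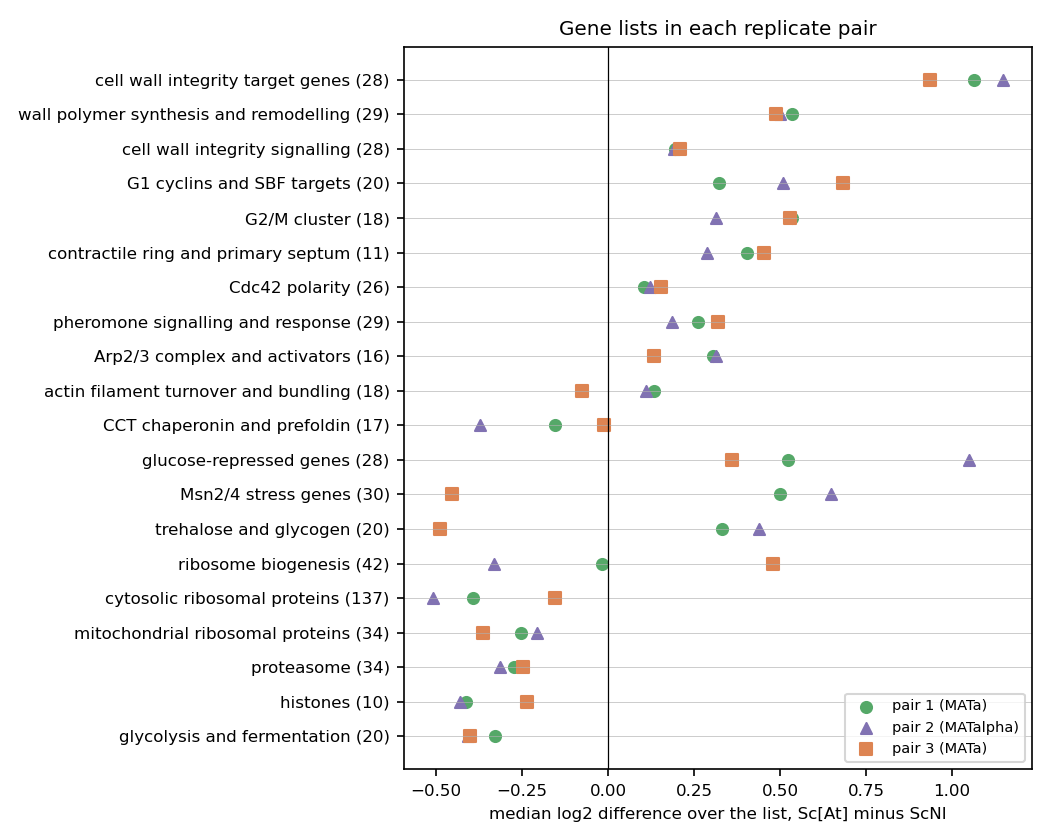
Median log2 difference, Sc[At] minus ScNI, of 20 gene lists in each replicate pair, with the number of genes tested in parentheses. The wall integrity targets lie between 0.94 and 1.15 in all 3 pairs. Pair 3 lies on the other side of 0 from pairs 1 and 2 for the Msn2 and Msn4 genes, for trehalose and glycogen and for ribosome biogenesis. This was also so for actin filament turnover and bundling, at 0.13, 0.11 and −0.08.

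Genes of glycolysis were lower in Sc[At], and a minority of them passed the test. Of 20 genes of glycolysis and fermentation, 6 fell (30.0%, against 5.75% of all genes tested) and none rose. The median log2 difference was −0.41, and it was −0.33, −0.41 and −0.40 in pairs 1, 2 and 3. PGK1, the phosphoglycerate kinase gene, had 67425, 74637 and 61332 normalised counts in Sc[At], against 104755, 113139 and 105536 in ScNI (log2 −0.67, SE 0.11, adjusted p = 0.023). TPI1, for triose phosphate isomerase, had 39217, 39140.1 and 36636 in Sc[At], against 54482, 58425 and 54369.8 in ScNI (log2 −0.54). Every Sc[At] library was below every ScNI library for both genes. TDH2 fell by 0.54, PFK2 by 0.46, HXK2 by 0.45 and the regulator gene GCR1 by 0.37 on the log2 scale. ENO2 (−0.54, adjusted p = 0.0501), ADH1 (−0.44, 0.055), PFK1 (−0.34, 0.0501) and TYE7 (−0.52, 0.058) lay just outside the threshold. GCR2, for a partner of GCR1's product, was at −0.16. FBA1, TDH3, GPM1, ENO1, CDC19, PGI1 and TDH1 had log2 differences from −0.70 to −0.23, and the pyruvate decarboxylase genes PDC1 and PDC5 had 0.12 and 0.35. TDH1 had 7218, 10646 and 2147 in Sc[At], with replicate 3 the lowest, against 7441, 11660.1 and 8148 in ScNI. When pairs 1, 2 and 3 were left out in turn, 0, 0 and 12 of the 20 fell, and with no replicate block 12 fell and 1 rose. The TDH and ENO genes are close paralogues that could share reads. The Gcr1 motif CTTCC, searched on both strands, was in the windows of 10 of these 20 genes, against 44.8% of all windows.

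Genes that glucose represses were higher in Sc[At] in part. Of 28, 14 rose and none fell, with pair medians of 0.52, 1.05 and 0.36. ADR1, for the activator of many of these genes, had 1945, 2704 and 1584 normalised counts in Sc[At], against 885, 649 and 773 in ScNI (log2 1.41, SE 0.21, adjusted p = 0.019). SFC1, a mitochondrial carrier gene, rose by 1.67 from few reads, with 55.2, 62.9 and 64 in Sc[At], against 20.5, 19.7 and 15.2 in ScNI. The genes of peroxisomal fatty acid oxidation POT1 and POX1 rose by 1.23 and 1.22. With pair 1, 2 or 3 left out, 0, 10 and 21 rose. Of 45 genes of the TCA cycle and respiratory chain, 2 rose and 2 fell (8.89% called, against 16.3% of all genes tested). No gene was called without pair 1, 0 rose and 4 fell without pair 2, and 14 rose and 4 fell without pair 3. The pair that fell were IDH1 and IDH2, for both subunits of the NAD-dependent isocitrate dehydrogenase. IDH1 had 2999, 3631 and 2400.4 in Sc[At], against 4708, 6483 and 5151 in ScNI (log2 −0.86, adjusted p = 0.012), and IDH2 had 5213, 7035 and 3916 in Sc[At], against 8797, 11299.9 and 9164 in ScNI (log2 −0.89, adjusted p = 0.016). The strains did not overlap for either gene. The citrate synthase genes CIT2 and CIT3 rose by 0.69 and 0.66.

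Stress genes of Msn2 and Msn4 differed between the pairs. Of 30, 4 rose and none fell (13.3% higher, against 10.6%). HSP12, for a small membrane-associated stress protein, had 1981, 5509.9 and 933 normalised counts in Sc[At], against 284, 332 and 228 in ScNI. Replicate 2 was the highest and replicate 3 the lowest of Sc[At], and all 3 lay above ScNI (log2 2.96, SE 0.37, adjusted p = 0.013). HSP26, for a small heat shock protein, had 600.1, 1760.4 and 495 in Sc[At], against 216, 273 and 176 in ScNI (log2 1.88). SSA3 rose by 0.98 and MSN4 itself by 0.53. Without pair 3, 22 genes of the list rose and 1 fell, and without pairs 1 and 2 in turn 0 and 4 rose. Of 20 trehalose and glycogen genes, 1 rose with all pairs (5.0%, against 10.6% of all genes tested), PGM1 by 0.36. Without pair 3, 13 rose and 1 fell. The part of the growth state of replicate 3 in these counts was not tested. Of 18 osmotic stress genes, 6 rose (33.3%, against 10.6% of all genes tested). ENA1, a sodium pump gene, had 289.7, 304 and 274 in Sc[At], against 185, 144 and 147 in ScNI (log2 0.87), and MSB2, an osmosensor gene, rose by 1.06. SIP18, for a hydrophilin induced by desiccation, rose by 1.67. Of 17 calcineurin and Crz1 targets, 5 rose and 1 fell (35.3% called, against 16.3% of all genes tested), with RCN1 at 0.63 and CMK2 at −0.48. GSC2, also a wall integrity target, is among those that rose. In the fits without pairs 1, 2 and 3, 0, 3 and 7 osmotic stress genes rose and 0, 0 and 2 fell. For the calcineurin list 1, 3 and 7 rose and 0, 0 and 1 fell.

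Some genes of the ribosome and the proteasome fell by small amounts, while those of ribosome biogenesis did not pass. Of 137 cytosolic ribosomal protein genes, 31 fell (22.6%, against 5.75% of all genes tested) and 1 rose, RPL15B. Their median log2 difference was −0.35, with −0.39, −0.51 and −0.15 in pairs 1, 2 and 3. RPL24B had 9813, 9402 and 11879 normalised counts in Sc[At], against 15126, 16317 and 15341 in ScNI (log2 −0.60, adjusted p = 0.027), and replicate 3 was the highest of Sc[At]. Without pairs 1, 2 and 3 in turn, 0, 2 and 123 fell, and 75 fell with no replicate block. Most of these genes have a near-identical paralogue. Of 34 mitochondrial ribosomal protein genes, 12 fell (35.3%, against 5.75% of all genes tested) with a median of −0.27. In the fits without pairs 1, 2 and 3, 0, 2 and 16 of them fell, and 3 fell with no replicate block. Of 42 ribosome biogenesis genes, none rose or fell in limma, and edgeR and DESeq2 also called 0. At an unadjusted p under 0.05, 1 was higher and 0 were lower, and without pair 3 limma called 13 lower. Of 34 proteasome genes, 16 fell (47.1%, against 5.75% of all genes tested) and 1 rose. Their median was −0.28, with pair medians of −0.27, −0.31 and −0.25. RPN8, for a lid subunit, had 3259, 3387 and 3586 in Sc[At], against 4699, 5151 and 4688 in ScNI (log2 −0.51). RPN4, the transcription factor gene of the proteasome, was the one that rose, with 2859.7, 2950.0 and 2392 in Sc[At], against 1672, 1762 and 1808 in ScNI (log2 0.64, adjusted p = 0.020). When pairs 1, 2 and 3 were left out in turn, 0, 2 and 24 proteasome genes fell.

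The chaperone list split in direction. Of 30 genes of the heat shock factor and cytosolic chaperones, 2 rose, HSP26 and SSA3, and 6 fell. The share called was 26.7%, against 16.3% of all genes tested, and the median log2 difference was −0.26. No gene was called without pair 1, 2 rose and 3 fell without pair 2, and 4 rose and 16 fell without pair 3. DESeq2 called 3 higher and 11 lower. HSC82, the constitutive Hsp90 gene, had 27884, 25691 and 34137 normalised counts in Sc[At], against 49285, 47127 and 51011 in ScNI (log2 −0.76, SE 0.11, adjusted p = 0.016). SSA2, a constitutive Hsp70 gene, had 17165, 13588 and 21664 in Sc[At], against 27139, 26656 and 28876 in ScNI (log2 −0.68). Both genes were lower in all 3 pairs. The Hsp40 gene SIS1 fell by 0.53 and the mitochondrial Hsp70 gene SSC1 by 0.46 on the log2 scale. HSC82 and SSA2 have close paralogues. Of 20 genes of the unfolded protein response, 2 rose and 1 fell (15.0% called, no more than the 16.3% of all genes tested). That list had 1, 1 and 2 genes higher and 0, 0 and 2 lower in the fits without pairs 1, 2 and 3. HAC1, for its transcription factor, rose by 0.42. INO1, the inositol phosphate synthase gene, had 488, 555 and 493 in Sc[At], against 121, 136 and 129 in ScNI (log2 1.99, SE 0.09, adjusted p = 0.0018).

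Several transport and nutrient genes changed singly. PDR15 and PDR5 encode ABC transporters of the pleiotropic drug response. PDR15 had 1201, 1370.3 and 805 normalised counts in Sc[At], against 2730.4, 3512 and 2686 in ScNI (log2 −1.43, SE 0.12, adjusted p = 0.0053). PDR5 had 17069, 15023 and 21422 in Sc[At], against 28013, 36335 and 31107 in ScNI (log2 −0.84). Both fell with no overlap between strains, as did their regulator gene PDR3 (log2 −0.73). RSB1, a sphingoid base transporter gene, fell by 0.69 on the log2 scale, while RTA1, TPO4 and TPO1 in the same list rose, by 1.67, 0.76 and 0.64. Of 17 genes for multidrug resistance, 3 rose and 4 fell in all (41.2% called, against 16.3% of all genes tested). In the iron regulon, 1 of 29 rose and 2 fell (10.3% called, against 16.3% of all genes tested). FET3, the ferroxidase gene of iron uptake, had 2364, 1360.0 and 2800.1 in Sc[At], against 4035, 4224 and 4424 in ScNI (log2 −1.02, adjusted p = 0.032). HMX1, the heme oxygenase gene, had 925, 637 and 708 in Sc[At], against 239, 229 and 192 in ScNI (log2 1.77, adjusted p = 0.0042). Of 24 phosphate genes, 6 rose and 1 fell (29.2% called). PHO89, a sodium-coupled phosphate transporter gene, had 329, 246 and 436 in Sc[At], against 97.6, 72.4 and 60.9 in ScNI (log2 2.11), and PHO84 rose by 0.68. In amino acid synthesis 8 of 56 genes rose and 1 fell (16.1% called, close to the 16.3% of all genes tested). There 0, 6 and 16 rose and 0, 1 and 10 fell in the fits without pairs 1, 2 and 3. GCV2 and GCV1, of the glycine cleavage system, rose by 1.05 and 0.90. SER3 and ARG1, of serine and arginine synthesis, rose by 0.84 and 0.79, and GLN1, the glutamine synthetase gene, fell by 0.65 on the log2 scale. The multidrug list had 0, 3 and 5 genes higher and 1, 4 and 5 lower in the fits without pairs 1, 2 and 3. For iron these were 1, 1 and 3 higher and 0, 1 and 5 lower, and for phosphate 0, 4 and 8 higher and 0, 0 and 1 lower.

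Some surface and mating genes rose as well. Of 16 cold-shock and anaerobic mannoprotein genes, 7 rose and 1 fell (43.8% higher, against 10.6% of all genes tested). CWP1 and CWP2, already counted as wall integrity targets, are among those that rose. TIR1 had 2251, 2419 and 2687 normalised counts in Sc[At], against 1189, 1215 and 1183 in ScNI (log2 1.03), while TIP1 fell by 0.66 on the log2 scale. Of 13 genes for flocculins and filamentous growth, 6 rose (46.2%, against 10.6% of all genes tested), with FLO10 at 1.01. MSB2 of the osmotic stress list is counted here too. These families have near-identical members that could share reads. Of 29 genes of pheromone signalling and response, 12 rose (41.4%, against 10.6% of all genes tested) and none fell. FAR1, for the protein that arrests the cycle on pheromone, had 2099, 2031 and 2237 in Sc[At], against 1146, 1258 and 1064 in ScNI (log2 0.88). FIG1 rose by 2.12 from few reads, with 60.1, 90.4 and 32.0 in Sc[At], against 8.20, 39.5 and 5.07 in ScNI, and replicate 2 of each strain was the highest. With no replicate block 4 of the 29 rose, and without pairs 1, 2 and 3 in turn 0, 7 and 12. BAR1, the protease gene that degrades alpha factor, was the MATa-specific gene that rose, with 3567, 244 and 3409.7 in Sc[At], against 2185, 107 and 2026 in ScNI (log2 0.88). Of 16 genes of meiosis and sporulation, 6 rose (37.5%, against 10.6% of all genes tested). Among them REC8, a meiotic cohesin gene, had 85.7, 141 and 106 in Sc[At], against 26.2, 32.9 and 28.4 in ScNI (log2 1.86). SPO11, for the enzyme of meiotic double-strand breaks, rose by 1.16, and DIT1, a spore wall gene, by 0.81. In the fits without pairs 1, 2 and 3, 1, 6 and 9 mannoprotein genes, 0, 4 and 8 flocculin and filamentous growth genes and 1, 3 and 7 meiosis genes rose. In the mannoprotein list 0, 1 and 3 then fell.

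Outside these lists, the genes with the largest changes included DSF1, a mannitol dehydrogenase-like gene, with 169, 259 and 88.9 normalised counts in Sc[At], against 33.6, 41.9 and 27.4 in ScNI (log2 2.18). YPR078C had 247, 233 and 173 in Sc[At], against 45.1, 47.7 and 50.7 in ScNI (log2 2.15), and CPP3 had 327, 413 and 189 in Sc[At], against 81.2, 57.6 and 71.0 in ScNI (log2 2.07). ERR2, an enolase-related gene with near-identical subtelomeric copies, rose by 2.34. All of these separated the strains in every library. YHR214C-B, a retrotransposon gene with near-identical copies, had 25.6, 43.5 and 33.2 in Sc[At], against 109, 146 and 113 in ScNI (log2 −1.84). TDA6, IZH4 and the phospholipase gene PLB2 fell by 0.95, 0.80 and 0.79 on the log2 scale.

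The same Sc[At] libraries were also set against 2 other haploid strains with a modified actin, Sc[Ca] and Sc[Sp], so the 3 comparisons share them and are not independent. ACT1 was at 159.9, 173 and 105 normalised counts in Sc[Ca] and at 31.6, 9.43 and 21.7 in Sc[Sp]. Against Sc[Ca], 713 of 5807 genes (12.3%) differed, with 511 (8.8%) higher in Sc[At] and 202 (3.48%) lower. Of the same genes, edgeR called 12.4% (9.09% higher, 3.27% lower) and DESeq2 14.6% (10.7% higher, 3.87% lower). Against Sc[Sp], 728 of 5817 (12.5%) differed, with 454 (7.8%) higher in Sc[At] and 274 (4.71%) lower, where edgeR called 12.8% (7.77% higher, 5.02% lower) and DESeq2 13.7% (7.79% higher, 5.95% lower). Of the 28 wall integrity targets, 25 were higher and none lower in Sc[At] than in Sc[Ca], with a median log2 difference of 0.99. Against Sc[Sp], 10 were higher and 1 lower, with a median of 0.38. PIR3 had 2965, 3329 and 1338 in Sc[At], 269, 287 and 227 in Sc[Ca] and 1280.1, 2070.5 and 1176 in Sc[Sp]. The Sc[Ca] values were near those of ScNI, and Sc[Sp] lay between, overlapping with Sc[At]. The log2 difference of Sc[At] was 3.18 over Sc[Ca] (adjusted p = 0.0071) and 0.69 over Sc[Sp] (adjusted p = 0.053). GSC2 had 6587, 6385 and 4351 in Sc[At], 1688, 1661 and 1614 in Sc[Ca] and 2899.6, 2929 and 2717 in Sc[Sp]. Here Sc[At] was above both strains in every library, by 1.78 (adjusted p = 0.0071) and 1.00 (adjusted p = 0.0072). CWP1 was the target lower in Sc[At] than in Sc[Sp], by 0.40 on the log2 scale (adjusted p = 0.041).

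CLN2 was higher in Sc[At] than in each of the other strains. It had 2924, 3078 and 2665 normalised counts in Sc[At], 1089, 1167 and 1091 in Sc[Ca] and 1168, 1589 and 1144 in Sc[Sp] (log2 1.37 and 1.17, adjusted p = 0.0047 and 0.0037). HSL1, GIN4, RNR1 and RNR3 were also higher against both, with 0.96, 0.75, 0.87 and 1.51 over Sc[Ca], and 0.60, 0.61, 1.02 and 1.06 over Sc[Sp]. The list counts that follow are to be read against the shares of all genes tested. These were 8.8% higher and 3.48% lower against Sc[Ca], and 7.8% higher and 4.71% lower against Sc[Sp]. Of the 18 G2/M genes, 10 were higher in Sc[At] than in Sc[Ca], and none passed against Sc[Sp] (median −0.05). At an unadjusted p under 0.05, 2 were higher and 2 lower than in Sc[Sp], and edgeR and DESeq2 each called 1 lower. VRP1 and LAS17 were higher than in Sc[Ca], by 0.52 and 0.44, and did not pass against Sc[Sp] (0.27 and 0.03). Of the 18 genes of filament turnover and bundling, the only call against Sc[Ca] was ABP140, lower in Sc[At] (log2 −0.40, adjusted p = 0.034). None passed against Sc[Sp] in limma or edgeR, where 1 was higher and 1 lower at an unadjusted p under 0.05, and DESeq2 called 1 lower. Of the glucose-repressed genes, 8 of 28 were higher in Sc[At] than in Sc[Ca], while 10 were lower in Sc[At] than in Sc[Sp] and none higher. edgeR and DESeq2 called none of them higher than in Sc[Sp] either, and 3 were higher at an unadjusted p under 0.05. ADR1 had 1945, 2704 and 1584 in Sc[At], 861, 856 and 805 in Sc[Ca] and 2941, 2509.7 and 2256 in Sc[Sp], where the Sc[Sp] libraries overlapped those of Sc[At]. Ribosome biogenesis genes gave 3 of 42 higher in Sc[At] against Sc[Ca], where 8.8% of all genes were higher. Against Sc[Sp] they gave 32 of 42 higher, where 7.8% of all genes were. DESeq2 called 18 and 33 of them higher. Sulfur and methionine genes gave 14 of 29 lower in Sc[At] than in Sc[Sp] and none lower than in Sc[Ca] by limma, edgeR or DESeq2, with 2 lower at an unadjusted p under 0.05. Glycolytic genes gave 6 of 20 lower against Sc[Ca] and 5 of 20 lower against Sc[Sp].

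**Figure D5:**
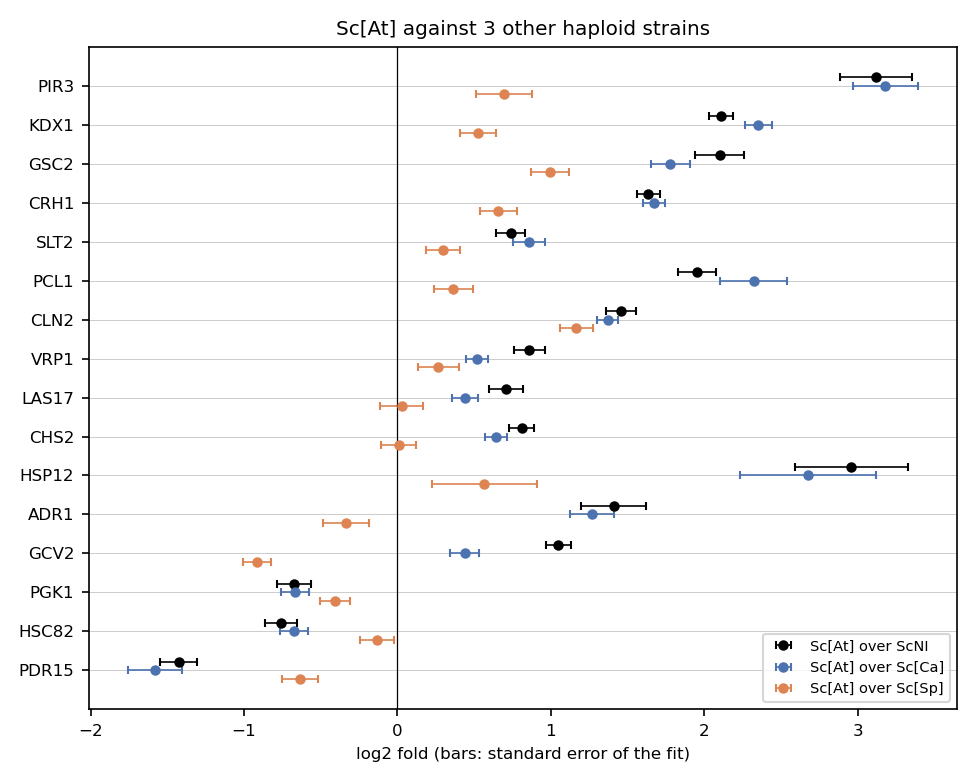
Log2 fold of Sc[At] over ScNI (black), Sc[Ca] (blue) and Sc[Sp] (orange) for 16 genes, with bars for the standard error of each fit. The fold over ScNI and that over Sc[Ca] lie close together for PIR3, KDX1 and CRH1, the fold over Sc[Sp] is smaller for these genes, and ADR1 and GCV2 lie below 0 against Sc[Sp]. The 3 folds of a gene share the Sc[At] libraries.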

How the data were processed

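The deposited values are a signal: read counts per gene divided by a size factor per library, which the values show to be DESeq2's median of ratios. Per the submitters' processing notes, the tools were HISAT2 2.2.1, Trimmomatic 0.39, FastQC 0.11.9, bcl2fastq 2.20.0.422 and DESeq2 1.28.0, with build R64. The sources used here give neither the counter nor a strand setting. Whole reads were recovered from the size factors (100% of values whole within 0.001 reads), and the 6 libraries held 10228523 to 15403081 reads.

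The main test was limma 3.58.1 (R 4.3.3) with an intensity trend on log2(value + 1), for genes averaging 10 or more in the libraries compared, with the replicate number as a block. It left 2 residual degrees of freedom, with a prior of 3.30. Deviations from the strain means correlated at 0.45, 0.64 and 0.40 between same-numbered Sc[At] and ScNI libraries. Libraries with different numbers correlated at 0.39 and 0.20 within MATa and at −0.61 to −0.37 across mating types, so the correlations include mating type. As every same-numbered pair was over 0.1, the numbers were taken to pair the samples. The MATa libraries with different numbers were over 0.1 as well, so this rule cannot show pairing of replicates 1 and 3 beyond mating type. Alternatives used edgeR 4.0.16 and DESeq2 1.42.0 on the recovered reads, other designs, filters, pseudocounts and scaling, and left out each pair. Against Sc[Ca] and Sc[Sp] the same fit was run. On simulated counts for 5804 genes, the test recovered 99% of 100 genes changed by log2 1 and 62% of 100 changed by log2 0.5. It made 13 false calls. The simulation put in no difference between replicate pairs or mating types, so these rates need not hold for the real libraries.

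Genes were named by rule: ACT1 and its neighbours, the 10 largest called increases and decreases with a mean of at least 100 in the higher strain and 1 sign in all pairs, up to 4 called genes per direction in each of 51 lists, and every member of 5 lists (filament turnover, Arp2/3, wall integrity signalling and targets, glycolysis). A gene named for another reason is marked as such. The members and lists were chosen with earlier results of these data known. Of 5838 yeast genes, 3 had no match in the R64 annotation. Motif windows were the 300 bases before the start codon annotated in R64.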

Additional observations from a re-analysis of the deposited data

Results flagged for a closer look

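The entry for the introduced At actin gene lies outside the tests, and its mean in Sc[At] was 18930 normalised counts, against 0.82, 0 and 0 in the ScNI libraries. The MATalpha-specific genes went opposite ways between replicate pairs. Their median log2 difference of Sc[At] minus ScNI was −0.31 in pair 2, which carries MATalpha, against 0.84 and 0.73 in pairs 1 and 3. The summed level of 4 MATalpha-specific genes in Sc[At] was 1113 and 1101 normalised counts in replicates 1 and 3, against 42261 in replicate 2. The medians of pairs 1 and 3 thus come from low levels, and the difference between pairs was not tested.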

How the results depend on the processing

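With the 12 libraries of 4 strains in a single fit with the block, 1940 genes differed from ScNI, 2009 from Sc[Ca] and 1993 from Sc[Sp], and 52.6% of the calls against ScNI were higher in Sc[At], against 64.8% in the main result. Leaving out a pair gave 45 to 2121 calls against ScNI, 77 to 1444 against Sc[Ca] and 534 to 1112 against Sc[Sp]. With no replicate block, in place of the pairing, the calls were 1145 against ScNI, 1036 against Sc[Ca] and 655 against Sc[Sp]. A mating type term in place of the block gave 1214 against ScNI. Of the 948 calls against ScNI, 849 were also made with no block, 944 by edgeR and 744 by DESeq2. None of the named genes that passed turned its direction under any alternative run. All 948 calls had the same sign in all 3 pairs, so leaving out a pair could not turn them. The other runs use the same Sc[At] libraries. Of 197 named genes that passed, 197 passed in edgeR, 184 in DESeq2, 180 with no block, 132 in the fit of 18 libraries, and 22, 134 and 197 without pairs 1, 2 and 3. For each list, calls were counted only in the direction with more calls in the main fit, or higher where the directions tied. These counts stayed within 1.5 times the main count in 51 of 51 lists with edgeR, 37 with DESeq2 and 39 with no block. They did so in 31 with all 18 libraries, 30 with 12 libraries, and 4, 23 and 32 without pairs 1, 2 and 3. DESeq2 called 15 glycolytic, 66 cytosolic and 5 mitochondrial ribosomal protein genes lower, against 6, 31 and 12 in limma. The causes were not tested. With 2 residual degrees of freedom, small changes can be missed. The 62% recovery of simulated log2 0.5 changes came from counts without differences between pairs, so the share missed in the real libraries is not known.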

Other observations

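The gene of the mitochondrial large ribosomal RNA, 21S_RRNA, is named here after its values were seen. It had 15.8, 33.2 and 33.2 normalised counts in Sc[At], against 2.46, 1.64 and 0 in ScNI, in libraries made from poly(A) RNA. It passed the filter on the mean only through the Sc[At] libraries, whose mean was 27.4, against 1.37 in ScNI. Its test result is therefore not given. The entry for the introduced N2 actin gene had 0.99, 0 and 0 normalised counts in Sc[At], against 207, 234 and 204 in ScNI, whose own actin is ACT1. The entry for the introduced Sc[Ca] actin gene had 0 in all 3 Sc[At] libraries, against 26.2, 36.2 and 26.4 in ScNI. Median log2 differences over the genes of each chromosome, taken in each of the 3 pairs, lay between −0.05 and 0.13.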
